A study of Caenorhabditis elegans with 12 samples.

Results

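The comparison set 4 arrays of the temperature-sensitive mutant fer-1(hc24ts), strain BA24, against 4 arrays of wild type strain N2. The members were the probe sets, array controls excepted, whose deposited log2 value reached 4 in at least 4 of these 8 arrays. There were 11760 of 22548 such probe sets, of which 11174 were paired with 1 gene, 375 with several and 211 with none. A gene was represented by its brightest tested probe set, which gave 8687 of the 17118 genes on the array. The series also holds 4 arrays of the allele fer-1(hc1ts), strain BA1, used below for comparison between the alleles. All 3 groups were young adults of Caenorhabditis elegans raised at 25 °C after hypochlorite synchronisation. Each sample was the total RNA of 1000 whole adults from a particle sorter gated to leave out L4 and younger larvae, and 100 ng of it was labelled. Each strain is a single line, 6 preparations were made per genotype, and the 4 that correlated best within the genotype were kept, so the spread between arrays understates that between preparations. The samples are whole worms, in which fewer cells of a type and less RNA per cell cannot be told apart.

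fer-1 encodes a ferlin, a large membrane protein with calcium-binding C2 domains, and gave its name to the ferlins, among them human dysferlin and otoferlin. In the worm it acts during the activation of spermatids, when membranous organelles fuse with the plasma membrane, and mutants are infertile at the restrictive temperature because their sperm cannot fertilise oocytes. In an adult hermaphrodite the germ line makes up a large part of the body, beside the epidermis that secretes the collagen cuticle, muscle, intestine, pharynx and neurons. The comparison asks how transcript levels across these tissues differ in the mutant.

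The arrays of a group were close to each other. Across all probe sets, which are not independent, correlations were 0.997 to 0.998 within wild type, 0.998 to 0.999 within hc24 and 0.977 to 0.983 between them. The fer-1 probe set was at background in every array, at a log2 level of 1.46 ± 0.00 in wild type and 1.47 ± 0.00 in hc24 (SD, n = 4 each), so it was not tested and cannot check the genotype. Markers matched the labelled whole worm in part: all 15 markers of oocytes and the germ line, 12 of 13 of the intestine and all 8 of the epidermis were tested. Of 20 sperm markers 10 were tested, and among those that stayed under the filter were spe-9, spe-11 and the sperm phosphatase genes gsp-3 and gsp-4. Only 1 of 10 male markers was tested. Of 16 early embryo markers 12 were tested. Some, such as pes-10 and tbx-37, passed the filter only through hc24, which favours a rise of their mean. The mean log2 level of the 12 tested markers ranged from 6.75 to 7.02 over the wild type arrays and from 8.94 to 9.01 over those of hc24, with 9 higher and 2 lower. That of the 8 epidermal markers ranged from 10.55 to 10.88 and from 9.59 to 9.85, with 2 higher and 4 lower. That of the 15 germ line markers was 12.97 to 13.20 and 13.26 to 13.33, with 6 higher and 0 lower. The part of these differences in the results below was not tested.

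Most tested probe sets were called different between the genotypes in the deposited values, and most of these differences were small. Of the tested probe sets 56.9% were called at an adjusted p under 0.05 (limma, Benjamini-Hochberg over 11760 probe sets), 35.9% higher and 21% lower in hc24. Among the 4222 higher ones 2899 differed by less than 1.5-fold, whereas only 701 of the 2467 lower ones did. The median log2 difference was 0.43 among the higher and -0.92 among the lower. At 2-fold or more the balance turned, with 612 probe sets higher and 1124 lower, and at 16-fold or more 35 were higher and 102 lower. By gene, 36% were higher, 21.5% lower and 3686 were not called, with 5.56% higher and 10% lower by at least 2-fold. The arrays of the groups did not overlap for 55.2% of probe sets and 55.9% of genes. The filter itself favours large differences: 117 probe sets passed it only through hc24 and 235 only through wild type. The half-width of the 95% interval of a difference had a median of 0.22 on the log2 scale, and for 1204 probe sets (10.2%) the whole interval lay within 0.25 of no difference.

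The balance of rises and falls depended on how the arrays were scaled. The median over all tested probe sets was 0.12 above 0 in the deposited values. It was 0.38 after median centring, where 80.2% of called probe sets were higher, and -0.00 after cyclic loess, where 44.7% were. With the deposited values 63.1% were higher. The number called also depended on the setting. It was 6689 of 11760 with the deposited values, 9413 after median centring and 5634 after cyclic loess. With a replicate block over the 8 arrays, where the difference rests on the arrays numbered 3 and 5 alone, it was 4743. A group's median is therefore given beside that of all genes, with the range of the gap between them over the deposited values, median centring, cyclic loess and quantile normalization. The gap is a description, without a test. The balance also changed with the level of the gene. Between log2 levels of 4 and 6 23.5% of probe sets were higher and 32% lower, and between 10 and 12 43.5% were higher and 10.5% lower. Above a level of 14 the shares were 14% and 16%.

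**Figure D1:**
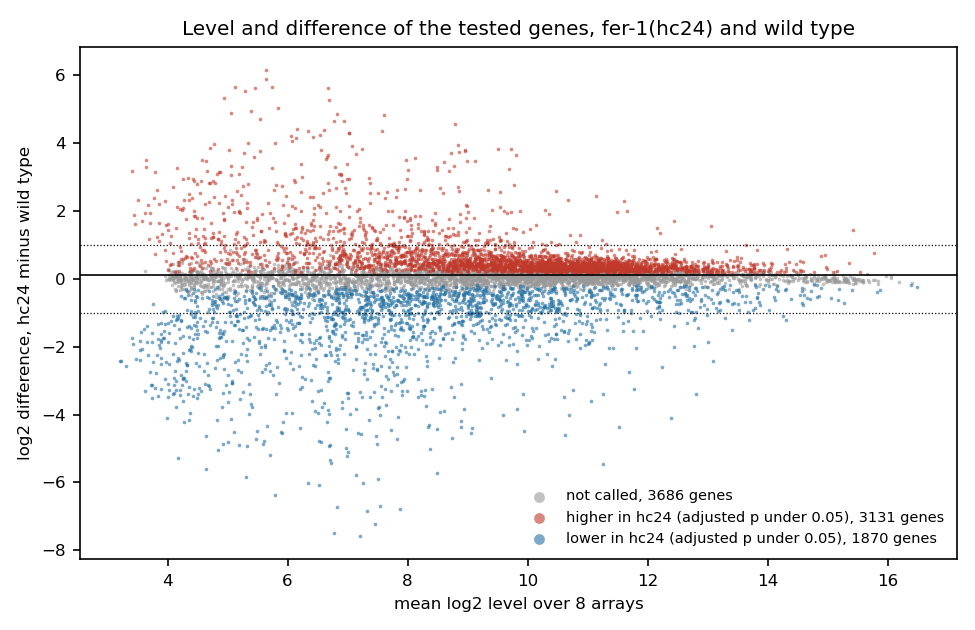
Mean log2 level over the 8 arrays (x axis) and log2 difference of hc24 minus wild type (y axis) for 8687 genes, 1 point per gene, coloured by the call at an adjusted p under 0.05. The solid line marks the median of all genes (0.12) and dotted lines a 2-fold difference. Higher genes form a dense band under 2-fold at levels of 8 to 12, and lower genes spread further from 0.

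Genes of the machinery of gene expression lay in the dense band of small rises. The splicing, nuclear pore, chromatin, DNA repair and spindle lists had median wild type levels of 10.2 to 11.3. Of all probe sets with a mean level of 10 to 12, 43.5% were higher and 10.5% lower, with a median of 0.19. The gaps to all genes given for these lists were not matched for level. Of 46 tested splicing genes 35 were higher and 0 lower (36% and 21.5% of all genes), with a median of 0.31, 0.19 above that of all genes (0.13 to 0.19 over the scalings). None differed by as much as 2-fold. After cyclic loess 15 of the 46 were still called higher and 0 lower. Here, and for the lists below with 0 members called in a direction by limma, the count in that direction was also 0 at an unadjusted p under 0.05, apart from 2 V-ATPase genes that were lower. snrp-40.1, a component of the U5 small nuclear ribonucleoprotein, read 9.93, 9.91, 9.66 and 9.85 in the wild type arrays and 10.66, 10.58, 10.67 and 10.54 in hc24. The groups did not overlap, and the level was 1.72-fold higher (log2 difference 0.78, SE 0.08, adjusted p = 3.73e-05). uaf-2, the small subunit of the U2 auxiliary factor that recognises the 3′ splice site, rose 1.54-fold (adjusted p = 0.00023), and the RNA-binding protein gene rnp-5 rose 1.51-fold (adjusted p = 0.000296).

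Nuclear pore and transport genes showed the same size of rise: 26 of 40 were higher and 0 lower, with a median of 0.30. That is 0.18 above all genes (0.09 to 0.18), and 8 were higher and 1 lower after cyclic loess. xpo-2, the export receptor that returns importin alpha to the cytoplasm, went from 11.03 ± 0.13 to 11.65 ± 0.11 (SD, n = 4 each, adjusted p = 0.000328). The nucleoporin genes npp-8 and npp-16 rose 1.32-fold and 1.36-fold (adjusted p = 0.000658 and adjusted p = 0.000855).

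Subunits of the general transcription machinery were among the 8 name families, of 81 with at least 10 tested genes, with the highest share of higher members. Families were chosen for description by these shares of calls, so the shares themselves are a description. All 10 rpb genes, which encode RNA polymerase II subunits, passed the filter. Of them 8 were higher and 0 lower, rpb-11 by 1.42-fold and rpb-5 by 1.31-fold (adjusted p = 0.000699 and adjusted p = 0.000877). Of 14 tested taf genes, which encode the TFIID factors that bind core promoters, 9 were higher and 0 lower. The paralogs of 1 of these factors had the smallest adjusted p-values of the family (limma). They did not have the largest rise, which was 1.45 on the log2 scale. taf-11.1 read 7.37, 7.24, 7.39 and 7.28 in wild type and 8.57, 8.51, 8.38 and 8.18 in hc24, 2.13-fold higher (adjusted p = 1.23e-05), and taf-11.2 rose 1.85-fold (adjusted p = 1.84e-06). The arrays of the groups did not overlap for either gene. Of 16 mdt genes, which encode the Mediator complex that links transcription factors to the polymerase, 10 were higher and 0 lower, with a median of 0.28. mdt-11 and mdt-22 rose 1.33-fold and 1.31-fold (adjusted p = 0.000848 and adjusted p = 0.00232).

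**Figure D2:**
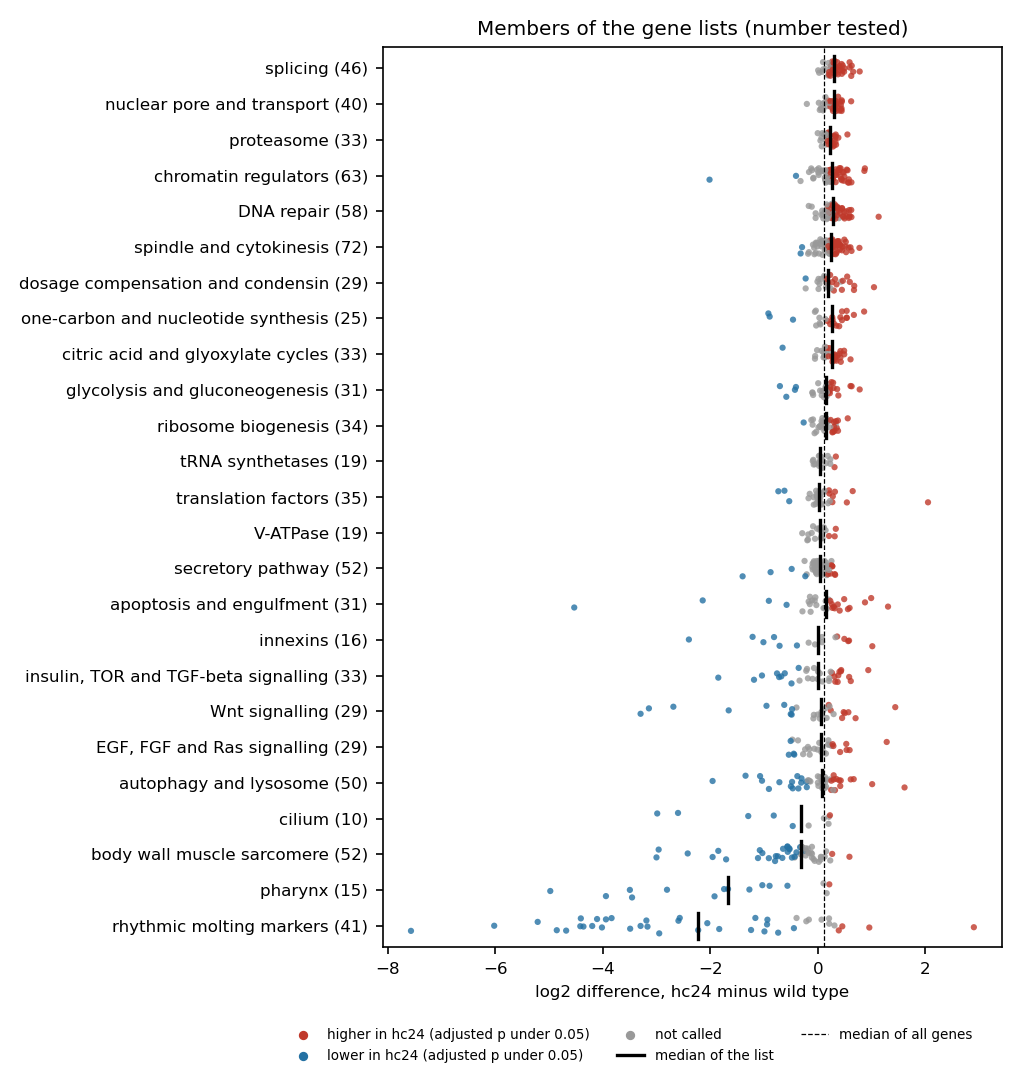
Log2 difference of hc24 minus wild type (x axis) for the tested members of 25 gene lists, 1 point per gene, coloured by the call; the thick bar is the median of the list and the dashed line that of all genes (0.12). Splicing, nuclear pore and proteasome genes lie in a narrow band above 0, signalling lists spread both ways, and muscle, pharynx and molting genes reach far below 0.

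Chromatin regulators rose in 36 of 63 cases and fell in 2, with a median of 0.26 (0.14 above all genes, 0.09 to 0.14 over the scalings). lin-15B, a repressor of germ line genes in somatic cells, read 8.21, 8.37, 8.26 and 8.37 in wild type and 9.10, 9.24, 9.10 and 9.26 in hc24. It was 1.83-fold higher, with no overlap of the arrays (adjusted p = 9.94e-06). The histone H3 lysine 4 demethylase gene lsd-1 rose 1.82-fold (adjusted p = 7.34e-05) and the histone-binding subunit gene lin-53 1.49-fold (adjusted p = 9.81e-05). The exceptions were jmjd-3.1, a demethylase of histone H3 lysine 27, and cbp-1, the worm CBP/p300 acetyltransferase. jmjd-3.1 fell 4.04-fold, from 8.15 ± 0.18 to 6.13 ± 0.29 (SD, n = 4 each, adjusted p = 4.89e-06), and cbp-1 fell 1.33-fold (adjusted p = 0.0126), a call that median centring ended (adjusted p = 0.21).

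Genome maintenance and cell division genes behaved alike in size. Of 58 DNA repair genes 34 were higher and 0 lower (median 0.29, 0.10 to 0.17 above all genes over the scalings). dog-1, the worm FANCJ helicase that unwinds guanine-rich DNA, read 7.53, 7.53, 7.30 and 7.53 in wild type and 8.48, 8.64, 8.80 and 8.50 in hc24, a rise of 2.19-fold (adjusted p = 9.87e-06). Its groups did not overlap, and it was the only member of the list to rise 2-fold. csb-1, of transcription-coupled repair, and top-2, topoisomerase II, rose 1.54-fold and 1.5-fold (adjusted p = 7.13e-05 and adjusted p = 7.55e-05). Spindle and cytokinesis genes were higher in 41 of 72 cases and lower in 2, with a median of 0.25 (0.09 to 0.13 above all genes). The checkpoint gene mdf-2, the worm Mad2, rose 1.71-fold (adjusted p = 6.99e-05), the kinetochore gene kbp-5 1.54-fold (adjusted p = 0.000121) and cyk-4, a subunit of centralspindlin, 1.43-fold (adjusted p = 0.000164). Those that fell were nud-2, a dynein regulator, and the polarity kinase gene par-1, by 1.25-fold and 1.23-fold (adjusted p = 0.0177 and adjusted p = 0.0209). Median centring ended both calls (adjusted p = 0.472 and adjusted p = 0.686), and that of par-1 was lost without hc24 array 1 or 3 (left out singly, adjusted p = 0.0532 to 0.0616).

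Among 29 genes of dosage compensation, condensin, cohesin and sex determination 14 (48.3%) were higher and 1 lower. The median was 0.19, only 0.07 to 0.08 above all genes over the scalings, and 7 were higher and 2 lower after cyclic loess. At mean levels of 10 to 12, a range that holds the list's median level, 43.5% of probe sets were higher, with a median of 0.19. The list as a whole therefore stood near other genes of its level. sdc-1, which helps recruit the dosage compensation complex to X, read 8.60, 9.01, 8.45 and 9.01 in wild type and 9.76, 9.82, 9.82 and 9.85 in hc24. The groups did not overlap, wild type varied more than hc24, and the rise was 2.06-fold (adjusted p = 0.000157). sex-1, an X-linked nuclear receptor by which the number of X chromosomes is read, rose 1.6-fold (adjusted p = 5.07e-05) and fem-3, which promotes sperm fate in the germ line, 1.51-fold (adjusted p = 0.00016). The cohesin subunit gene coh-1 fell 1.17-fold (adjusted p = 0.048), a call that was lost without wild type array 4, 5 or 6 or hc24 array 1, 2 or 5 (left out singly, adjusted p = 0.0591 to 0.115) and turned to a log2 difference of 0.02 with median centring (adjusted p = 0.833).

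hc24 stood below hc1 for some of these groups. In the fit of all 12 arrays, which uses the hc24 arrays again, 13% of the 8687 genes were higher and 18.6% lower in hc24 than in hc1. Of the splicing genes 13 of 46 were lower than in hc1 and 0 higher, of the chromatin regulators 17 of 63 and 0, and of the dosage compensation group 13 of 29 and 0. One hc1 array, replicate 2, stood apart from the others of its group in sperm genes, and without it these counts of lower genes were 11, 16 and 13. Other groups had shares near or below the 18.6% of all genes. With all 12 arrays 7 of 40 nuclear pore genes, 11 of 58 DNA repair genes and 7 of 72 spindle genes were lower than in hc1. snrp-40.1 was -0.48 from hc1 on the log2 scale (adjusted p = 0.00223), lin-15B -0.50 (adjusted p = 0.000322) and sdc-1 -0.40 (adjusted p = 0.0269). Of 33 proteasome genes limma called 0 either way between the alleles, and 1 had an unadjusted p under 0.05. Every difference between the alleles that is given here for a single gene kept its direction and its call without hc1 replicate 2.

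Of 33 proteasome genes 21 rose and 0 fell, with a median of 0.23 (0.08 to 0.11 above all genes over the scalings). After cyclic loess 3 were higher and 0 lower. The core particle gene pas-7 rose 1.46-fold (adjusted p = 0.00254), and pas-1 and pbs-6 rose 1.26-fold and 1.24-fold (adjusted p = 0.00168 and adjusted p = 0.00273). Cyclic loess ended the call of pbs-6 (adjusted p = 0.0558).

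Enzymes of central metabolism differed by list. Of 33 genes of the citric acid and glyoxylate cycles 20 were higher and 1 lower, with a median of 0.26 (0.06 to 0.14 above all genes). dld-1, the dihydrolipoamide dehydrogenase shared by the pyruvate and oxoglutarate dehydrogenase complexes, read 11.23, 11.20, 11.25 and 11.22 in wild type and 11.69, 11.66, 11.69 and 11.81 in hc24. The arrays did not overlap, and the rise was 1.41-fold (adjusted p = 0.000147). pdha-1, of pyruvate dehydrogenase, rose 1.4-fold and ogdh-2, of oxoglutarate dehydrogenase, 1.34-fold (adjusted p = 0.000508 and adjusted p = 0.000569). The member that fell was icl-1, the bifunctional enzyme of the glyoxylate cycle, which turns fatty acid carbon into carbohydrate; it fell 1.58-fold, from 13.67 ± 0.18 to 13.01 ± 0.17 (SD, n = 4 each, adjusted p = 0.00121). In glycolysis and gluconeogenesis 12 of 31 were higher and 4 lower, shares near those of all genes (36% and 21.5%), and cyclic loess gave 5 and 4. The members that rose included hxk-2, a hexokinase, by 1.71-fold (adjusted p = 0.00107) and gpi-1, glucose-6-phosphate isomerase, by 1.52-fold (adjusted p = 0.00016). The members that fell were trehalose enzymes, tps-2 by 1.63-fold, tre-2 by 1.34-fold and tre-3 by 1.5-fold (adjusted p = 0.000239, adjusted p = 0.000839 and adjusted p = 0.00615), and the gluconeogenic gene pck-1 by 1.33-fold (adjusted p = 0.0292). Median centring ended the calls of tre-2 and pck-1 (adjusted p = 0.0543 and adjusted p = 0.247), and that of pck-1 was lost without wild type array 3 or 5 or hc24 array 1, 2 or 3 (left out singly, adjusted p = 0.0635 to 0.0792). Against hc1, 14 of the 33 cycle genes and 14 of the 31 glycolytic genes were higher in hc24 and 0 lower, dld-1 by 0.38 (adjusted p = 0.000378).

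One-carbon and nucleotide synthesis had 15 of 25 genes higher and 3 lower (median 0.27, 0.11 to 0.15 above all genes). Those that rose included thymidylate synthase tyms-1 by 1.82-fold (adjusted p = 1.9e-05) and the large subunit of ribonucleotide reductase rnr-1 by 1.45-fold (adjusted p = 0.000193), and GMP synthase gmps-1 rose 1.59-fold (adjusted p = 0.000155). All 3 that fell act in pyrimidine salvage or breakdown: the cytidine deaminase gene cdd-1 fell 1.89-fold and the dihydropyrimidinase genes dhp-2 and dhp-1 fell 1.86-fold and 1.38-fold (adjusted p = 0.00017, adjusted p = 0.00109 and adjusted p = 0.016). The call of dhp-1 was lost with median centring (adjusted p = 0.134).

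The protein synthesis and secretion machinery differed little. Of 30 rps genes, for the small ribosomal subunit, 0 were called in either direction by limma (0 at an unadjusted p under 0.05), and of 44 rpl genes, for the large one, 1 was lower. Calls were also few for 19 cytosolic tRNA synthetases (2 higher, 0 lower), 19 V-ATPase genes (3 higher, 0 lower) and 52 genes of the secretory pathway (7 higher, 4 lower). The medians of the ribosomal, tRNA synthetase, translation factor, V-ATPase and secretory groups changed sign with the scaling, and cyclic loess called 21 rps and 25 rpl genes lower while median centring called 21 and 31 higher, so no direction is drawn for them. Of 34 ribosome biogenesis genes 11 were higher and 1 lower, a share of rises near that of all genes, and cyclic loess turned this to 1 higher and 6 lower. Of the initiation factors, ife-5, an isoform of the cap-binding protein eIF4E known from the germ line, read 6.18, 5.75, 6.32 and 6.44 in wild type and 8.28, 8.12, 8.34 and 8.14 in hc24. The groups lay apart by more than their own range, and the rise was 4.14-fold (adjusted p = 3.05e-06), beside -0.53 (adjusted p = 0.002) for its paralog ife-4 on the log2 scale. eef-1A.2, an elongation factor, and iff-2, the worm eIF5A, fell 1.66-fold and 1.54-fold (adjusted p = 2.29e-05 and adjusted p = 5.93e-05). In the secretory list the largest falls were the subunits of collagen prolyl 4-hydroxylase, which hydroxylates collagen in the endoplasmic reticulum. The catalytic subunit genes phy-2 and dpy-18 fell 2.64-fold and 1.84-fold and the partner subunit gene pdi-2 1.4-fold (adjusted p = 2.44e-06, adjusted p = 2.65e-05 and adjusted p = 0.0017). The small GTPase gene rab-1 fell 1.18-fold (adjusted p = 0.0227), a call lost without wild type array 3 or 5 or hc24 array 5 (left out singly, adjusted p = 0.0529 to 0.059) and turned to a log2 difference of 0.02 with median centring (adjusted p = 0.836).

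**Figure D3:**
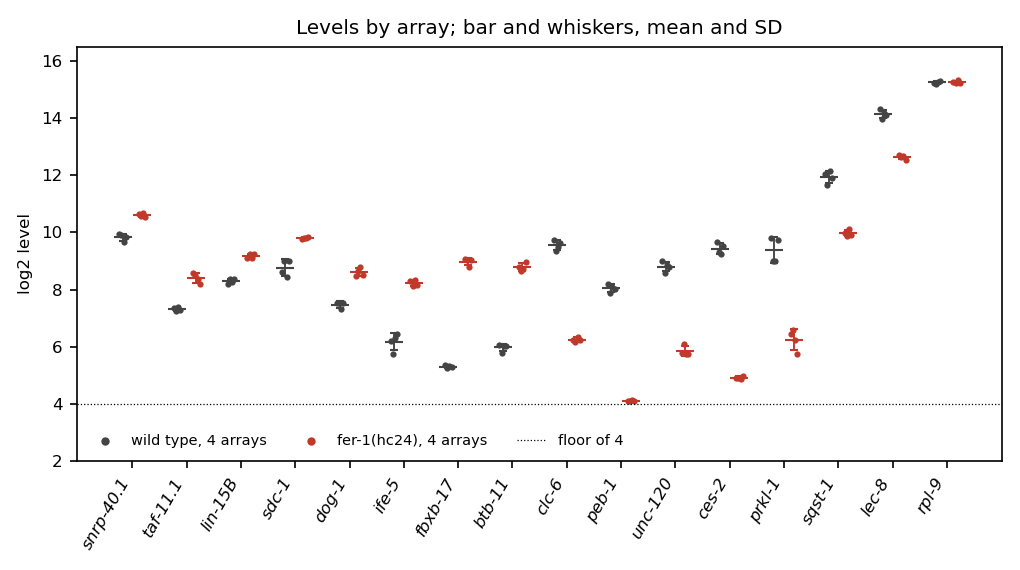
Log2 levels (y axis) of 16 genes in each of 4 wild type and 4 hc24 arrays, with the mean and SD of each group; the dotted line is the floor of 4. Groups lie apart for every gene shown but the ribosomal protein gene rpl-9, whose means were 15.26 in both.

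Larger rises came in the fbxb, sdz, btb and msp families. Among 41 tested fbxb genes, which encode F-box proteins that may select targets for ubiquitination, 37 were higher and 0 lower, with a median of 1.64. The filter matters here, since 54 more fbxb genes on the array stayed under it and 14 of the 41 passed only through hc24. fbxb-17 read 5.35, 5.27, 5.31 and 5.28 in wild type and 9.06, 9.03, 8.79 and 9.02 in hc24. Its rise was 12.8-fold with wide separation of the groups (adjusted p = 2.08e-09), and fbxb-103 was at least 9.29-fold higher (adjusted p = 1.86e-09). Of 17 tested sdz genes, named as targets of the early embryonic factor SKN-1, 16 were higher and 1 lower (median 1.92, 5 of them tested only through hc24). sdz-9 and sdz-31 were at least 14.5-fold and at least 14.8-fold higher (adjusted p = 1.96e-09 and adjusted p = 3.34e-09), while sdz-6 fell 2.42-fold (adjusted p = 0.000119). Of 10 tested btb genes, of a domain found in adaptors of ubiquitin ligases, 7 were higher and 0 lower, and all 10 lie on chromosome II. btb-11 read 6.07, 5.77, 6.01 and 6.03 in wild type and 8.80, 8.66, 8.74 and 8.97 in hc24. It rose 7.06-fold (adjusted p = 2.92e-08) and btb-6 3.32-fold (adjusted p = 1.25e-06). All 22 tested msp genes, for the major sperm protein of the sperm cytoskeleton, were higher, but 5 of them passed the filter only through hc24 and their near-identical sequences share signal between probe sets. msp-63, for example, rose 7.29-fold (adjusted p = 1.79e-08). The mean level of the 10 tested sperm markers ranged from 6.56 to 6.96 over the wild type arrays and from 8.10 to 8.25 over those of hc24. Of these markers 7 were higher and 1 lower. They include msp-3, msp-19 and msp-78, so their mean is not separate from the msp family.

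These families weighed on chromosome II. Of its 1535 tested genes 128 (8.34%) rose at least 2-fold, beside 4.96% of the genes elsewhere. The fbxb, sdz, btb and msp families made up 41 of the 128. Without them the shares were 5.86% and 4.56%. hc24 fell below hc1 for fbxb-17 (log2 difference -1.15, adjusted p = 2.29e-07), sdz-9 (-0.91, adjusted p = 1.79e-05) and btb-11 (-0.61, adjusted p = 0.000291). The msp family went the other way. All 22 tested msp genes, 5 of them tested only through hc24, were higher in hc24 than in hc1, beside 13% of all genes. This count was the same without hc1 replicate 2.

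**Figure D4:**
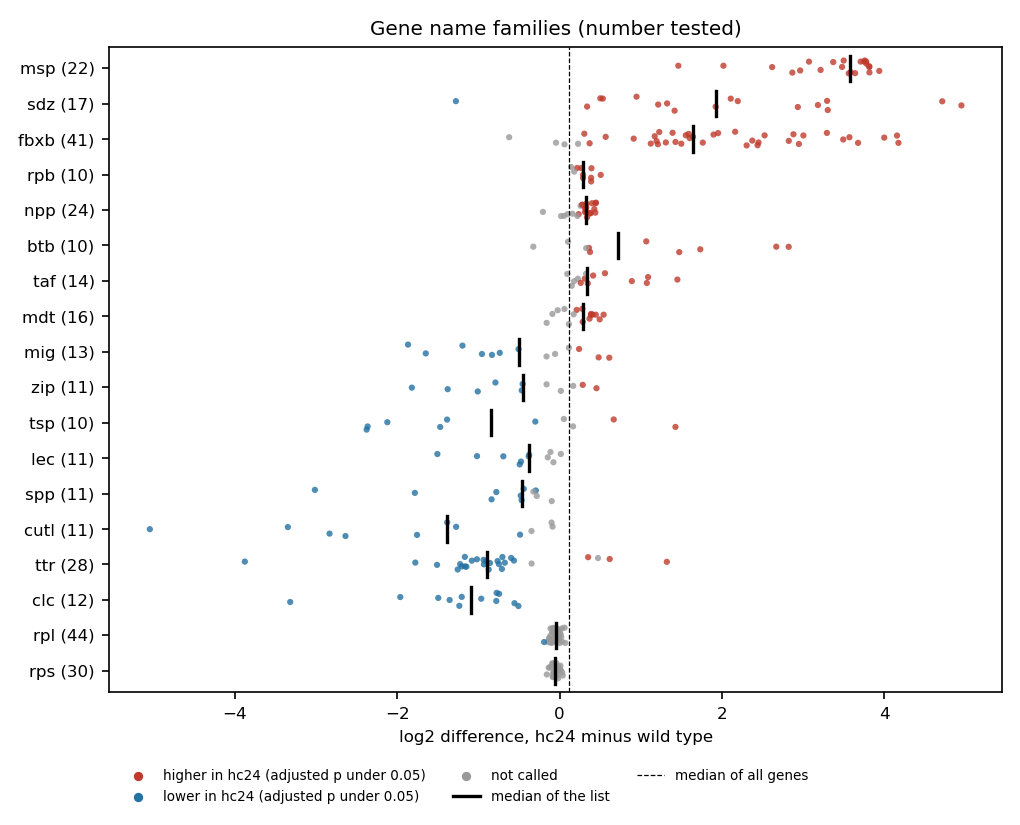
Log2 difference of hc24 minus wild type (x axis) for the tested members of 18 gene name families: the 8 with the highest share of higher members, the 8 with the highest share of lower members, and the rpl and rps ribosomal protein genes. Thick bars are family medians and the dashed line is the median of all genes (0.12); rpb, npp and mdt genes rise by far less than fbxb, sdz and msp genes, and the rpl and rps genes cluster at 0.

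Among falling families the claudin-like genes stood first: all 12 tested clc genes were lower, with a median of -1.08 (1.13 to 1.20 below all genes over the scalings). Claudins are membrane proteins of cell junctions. Another 11 clc genes stayed under the filter, and 3 of the 12 passed only through wild type. clc-6 read 9.75, 9.34, 9.51 and 9.63 in wild type and 6.23, 6.15, 6.35 and 6.23 in hc24. The groups were far apart and the fall was 9.96-fold (adjusted p = 1.12e-08). clc-7 was at least 1.78-fold lower (adjusted p = 5.24e-05). The cuticlin-like cutl genes, which encode zona pellucida domain proteins of the apical matrix, fell in 8 of 11 cases with a median of -1.38, but 5 of the 11 passed the filter only through wild type. cutl-2 and cutl-16 were at least 10.3-fold and at least 6.47-fold lower (adjusted p = 4.06e-10 and adjusted p = 1.56e-08).

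Transthyretin-related genes, a nematode family of small secreted proteins, fell in 23 of 28 cases and rose in 3, with a median of -0.89 (1.01 to 1.04 below all genes). ttr-6 read 11.93, 11.64, 11.66 and 11.51 in wild type and 9.93, 9.92, 9.84 and 9.96 in hc24, with no overlap, a fall of 3.42-fold (adjusted p = 4.4e-07). ttr-26 fell 14.7-fold (adjusted p = 1.61e-07). The 3 that rose were ttr-14, by 2.5-fold (adjusted p = 7.24e-05), ttr-31, by 1.53-fold (adjusted p = 0.00161), and ttr-53, by 1.28-fold (adjusted p = 0.0418). The call of ttr-53 was lost without wild type array 3, 4, 5 or 6 or hc24 array 1 or 2 (left out singly, adjusted p = 0.0593 to 0.109), with cyclic loess (adjusted p = 0.251) and with quantile normalization (adjusted p = 0.155).

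Saposin-like spp genes, which encode lipid-binding and pore-forming proteins of defence and digestion, fell in 8 of 11 cases (median -0.47). spp-15 fell 3.44-fold (adjusted p = 6.51e-06) and spp-13, the 1 member that passed the filter only through wild type, was at least 6-fold lower (adjusted p = 2.2e-05). Galectins, sugar-binding proteins, fell in 7 of 11 cases (median -0.38), and this reached some of the most abundant messages. lec-8 read 14.33, 13.98, 14.18 and 14.13 in wild type and 12.73, 12.64, 12.67 and 12.55 in hc24, 2.84-fold lower with no overlap (adjusted p = 8.33e-07), and lec-6 fell 1.62-fold (adjusted p = 0.000379). Tetraspanins, which organise membrane domains, divided: 6 of 10 were lower and 2 higher. tsp-15, needed in the epidermis, fell 2.77-fold (adjusted p = 5.28e-06). tsp-14 and tsp-12, which both act in BMP-like signalling, went opposite ways, 5.15-fold down (adjusted p = 8.69e-07) and 1.59-fold up (adjusted p = 0.000153). tsp-10 rose 2.69-fold (adjusted p = 0.000141). Of the bZIP transcription factors named zip 6 of 11 were lower and 2 higher, among them zip-7 by 2.6-fold and zip-2, of pathogen responses, by 1.73-fold (adjusted p = 4.48e-06 and adjusted p = 0.00041). The mig genes share only a cell migration phenotype, and 7 of 13 were lower and 3 higher. mig-10, the worm lamellipodin, fell 3.65-fold and mig-6, a papilin of the extracellular matrix, 2.29-fold (adjusted p = 9.54e-07 and adjusted p = 2.76e-05), while mig-32 rose 1.53-fold (adjusted p = 0.00063).

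The molting cycle genes of larvae had the lowest median of the lists. Of 41 tested members 30 were lower and 4 higher, with a median of -2.23, and 5 passed only through wild type. The protease inhibitor gene mlt-11 read 11.45, 11.26, 11.09 and 11.31 in wild type and 6.82, 6.77, 6.97 and 6.91 in hc24, with no overlap and a fall of 21.3-fold (adjusted p = 1.86e-09). noah-1 and noah-2, zona pellucida proteins of the matrix under a new cuticle, fell 16.2-fold and 14.3-fold (adjusted p = 5.23e-08 and adjusted p = 5.81e-08). nhr-25, a nuclear receptor of the epidermis and molting, fell 7.73-fold (adjusted p = 3.3e-06), as did blmp-1, a repressor with oscillating targets, by 6.04-fold (adjusted p = 3.41e-07). The 4 that rose were the hedgehog-related genes grd-10, grd-3 and grl-4 and the peroxidase gene mlt-7. Cyclic loess ended the calls of grd-3 and grl-4 (adjusted p = 0.086 and adjusted p = 0.133), and that of grl-4 was lost without wild type array 4 or 6 or hc24 array 3 or 5 (left out singly, adjusted p = 0.0601 to 0.068). grd-10 read 5.38, 4.35, 4.87 and 4.03 in wild type and 7.60, 7.62, 7.21 and 7.80 in hc24, 7.48-fold higher (adjusted p = 2.21e-05), and was 3.87 ± 0.21 (SD, n = 4) in hc1. So it was high in all 4 hc24 arrays and low elsewhere, with a log2 difference of 3.69 from hc1 (adjusted p = 4.38e-07). In a list of adult cuticle, yolk and stage markers 10 were tested, of which 1 (10%) was higher and 4 (40%) lower. All genes had 36% and 21.5%, and median centring gave 4 higher and 1 lower. The 4 lower members include nhr-25, counted again here and the only member to fall at least 2-fold. The higher one, the adult cuticle collagen gene col-19, rose 1.98-fold (adjusted p = 0.000108).

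Most pharyngeal genes tested were lower. Of 33 pharyngeal genes on the array 18 stayed under the filter, and 1 of the 15 tested passed only through wild type. Of the 15, 12 were lower and 1 higher, the troponin I gene tni-4 (1.16-fold, adjusted p = 0.034). That rise was lost with cyclic loess (adjusted p = 0.191) and without wild type array 3, 4, 5 or 6 or hc24 array 2 or 5 (left out singly, adjusted p = 0.0537 to 0.0941). peb-1, a DNA-binding protein of the pharynx and hindgut, read 8.21, 7.87, 8.09 and 8.01 in wild type and 4.10, 4.09, 4.14 and 4.09 in hc24. All hc24 arrays were close to the floor, and the fall was 15.4-fold (adjusted p = 1.86e-09). peb-1 is also a member of the molting list, so the falls of these lists are not separate results. pha-4, the FoxA factor that specifies the organ, fell 7-fold (adjusted p = 6.48e-07), the homeobox gene ceh-34 was 11.3-fold lower (adjusted p = 3.48e-08) and the T-box gene tbx-2 3.19-fold (adjusted p = 4.47e-05). The pharyngeal myosin gene myo-1 differed by 0.16 on the log2 scale (95% interval -0.12 to 0.45, adjusted p = 0.285), and myo-2 and ceh-22 were under the filter.

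Body wall muscle genes fell in part. Of 52 sarcomere genes 26 were lower and 2 higher, with a median of -0.31 (0.42 to 0.44 below all genes over the scalings). unc-120, the SRF-like factor of muscle genes, read 8.98, 8.59, 8.86 and 8.78 in wild type and 5.76, 6.09, 5.76 and 5.75 in hc24, 7.79-fold lower with no overlap (adjusted p = 5.37e-08). The troponin T gene tnt-3 fell 8.01-fold (adjusted p = 1.04e-08) and the troponin I gene tni-1 3.89-fold (adjusted p = 2.89e-07). The L-type calcium channel gene egl-19 fell 5.36-fold (adjusted p = 2.01e-06). At the dense bodies (members chosen after their values were seen), which anchor thin filaments to the membrane, the vinculin gene deb-1 fell 2.05-fold (adjusted p = 8.05e-05), the talin gene tln-1 1.58-fold (adjusted p = 0.00127), the kindlin gene unc-112 1.72-fold (adjusted p = 0.00267), the PINCH gene unc-97 1.74-fold (adjusted p = 0.00264) and the alpha integrin gene pat-2 1.88-fold (adjusted p = 0.00051). The beta integrin gene pat-3 differed by -0.32 on the log2 scale (95% interval -0.60 to -0.04, adjusted p = 0.0502). Of the contractile proteins the paramyosin gene unc-15 differed by 0.05 (adjusted p = 0.689), the myosin heavy chain gene myo-3 fell 1.44-fold (adjusted p = 0.0111), and the major myosin gene unc-54 and the calcium pump gene sca-1 were the 2 that rose, by 1.5-fold and 1.2-fold (adjusted p = 0.000847 and adjusted p = 0.0135). The call of sca-1 was lost with cyclic loess (adjusted p = 0.253) and that of myo-3 with median centring (adjusted p = 0.0904), while pat-3 was called lower after cyclic loess (adjusted p = 0.0114). Between the alleles 28 of the 52 genes were higher in hc24 than in hc1 and 2 lower, with unc-54 higher by 1.30 on the log2 scale (adjusted p = 1.76e-06).

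Members of signalling pathways went both ways, as did all genes (36% higher and 21.5% lower). Wnt ligands are secreted with the help of dedicated carriers and bind Frizzled receptors, which act through Dishevelled. Of 29 tested Wnt genes 8 (27.6%) were higher and 9 (31%) lower (6 and 10 after cyclic loess, 14 and 7 after median centring). Among ligands, cwn-2 read 6.68, 6.33, 5.75 and 6.05 in wild type and 2.80, 2.69, 3.23 and 2.90 in hc24, so it was under the floor in every hc24 array and at least 4.61-fold lower (adjusted p = 1.13e-06). cwn-1 fell 6.45-fold (adjusted p = 2.09e-05), whereas mom-2, the ligand of the early embryo, rose 1.37-fold (adjusted p = 0.000378). The secretion factor genes mom-1, the worm Porcupine, and mig-14, Wntless, rose 2.71-fold and 1.18-fold (adjusted p = 7.56e-06 and adjusted p = 0.0172), the latter not after cyclic loess (adjusted p = 0.335). Frizzled genes lin-17 and mig-1 fell 3.16-fold and 1.94-fold (adjusted p = 1.57e-05 and adjusted p = 5.78e-05). The Dishevelled genes dsh-2 and mig-5 rose 1.48-fold and 1.4-fold and dsh-1 fell 1.39-fold (adjusted p = 3e-04, adjusted p = 0.00114 and adjusted p = 0.00197). Of the planar polarity pair, prkl-1, Prickle, fell 8.84-fold from 9.39 ± 0.45 to 6.24 ± 0.37 (adjusted p = 6.32e-06), and vang-1, Van Gogh, rose 1.63-fold from 8.24 ± 0.10 to 8.94 ± 0.08 (SD, n = 4 each, adjusted p = 5.95e-05).

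Insulin, TOR and TGF-beta genes were higher in 11 and lower in 9 of 33 cases. These shares, 33.3% and 27.3%, stand beside 36% and 21.5% of all genes. The balance turned with the scaling, to 4 higher and 13 lower after cyclic loess and 17 higher and 8 lower after median centring. Of the kinase genes below the insulin receptor, pdk-1 rose 1.92-fold (adjusted p = 5.27e-05), the phosphoinositide 3-kinase gene age-1 1.25-fold (adjusted p = 0.00376) and akt-1 1.2-fold (adjusted p = 0.0125). After cyclic loess the calls of age-1 and akt-1 were lost (adjusted p = 0.0608 and adjusted p = 0.225). rict-1, the worm Rictor, rose 1.5-fold and the related kinase gene sgk-1 fell 2.28-fold (adjusted p = 0.000926 and adjusted p = 0.000107). In the BMP-like pathway, which sets body size, the receptor gene sma-6, the Smad gene sma-4 and the zinc finger cofactor gene sma-9 fell 1.53-fold, 1.4-fold and 2.06-fold (adjusted p = 0.00791, adjusted p = 0.00194 and adjusted p = 2.01e-05), while sma-10, which acts at the receptor, rose 1.53-fold (adjusted p = 0.000548). The largest fall of the list was sma-1 (3.61-fold, adjusted p = 1.25e-06), which shares the small-body phenotype but encodes a beta-heavy spectrin of the epithelial cytoskeleton. Of 29 EGF, FGF and Ras genes 7 (24.1%) were higher and 4 (13.8%) lower (5 and 7 after cyclic loess, 15 and 2 after median centring). Those that rose included the ligand gene lin-3 (1.51-fold, adjusted p = 0.000398), the scaffold gene ksr-2 (2.43-fold, adjusted p = 1.38e-05) and the adaptor gene sem-5 (1.33-fold, adjusted p = 0.000565). The 4 that fell were the FGF receptor gene egl-15 (at least 1.39-fold, adjusted p = 0.000539), the Ras inhibitor gene gap-2 (1.45-fold, adjusted p = 0.000542), the ETS factor gene lin-1 (1.36-fold, adjusted p = 0.00322) and soc-2 (1.37-fold, adjusted p = 0.0245). Median centring ended the calls of lin-1 and soc-2 (adjusted p = 0.11 and adjusted p = 0.179), and that of soc-2 was lost without wild type array 3 or 6 or hc24 array 3 (left out singly, adjusted p = 0.0515 to 0.0601).

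Among 31 genes of cell death 13 rose and 4 fell, beside 36% and 21.5% of all genes, and cyclic loess turned the balance to 5 higher and 8 lower. Among members chosen after their values were seen, the caspase gene ced-3 rose by 1.33-fold (adjusted p = 0.0386), its activator ced-4 by 1.23-fold (adjusted p = 0.00265) and the p53 gene cep-1 by 1.24-fold (adjusted p = 0.00677). ced-8, of phosphatidylserine exposure, rose by 1.84-fold (adjusted p = 1.74e-05). Cyclic loess ended the calls of ced-3, ced-4 and cep-1 (adjusted p = 0.161, adjusted p = 0.0877 and adjusted p = 0.104), and that of ced-3 was lost without wild type array 3, 4 or 5 or hc24 array 1, 2 or 3 (left out singly, adjusted p = 0.0575 to 0.1). The nuclease gene crn-6 rose 2.47-fold (adjusted p = 0.000308). Those that fell were alpha integrin genes, pat-2 and ina-1 (1.5-fold, adjusted p = 0.000525), and the transcription factors that specify the death of single neurons. ces-2, a bZIP factor, read 9.66, 9.33, 9.25 and 9.52 in wild type and 4.89, 4.89, 4.86 and 4.98 in hc24. It fell 23.1-fold with no overlap (adjusted p = 2.19e-09), and its Snail-like target ces-1 was at least 2.77-fold lower (adjusted p = 1.94e-07). Both lie on chromosome I.

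Autophagy and lysosome genes were higher in 13 of 50 cases and lower in 15 (6 and 17 after cyclic loess, 31 and 8 after median centring). These shares, 26% and 30%, stand beside 36% and 21.5% of all genes. sqst-1, the worm p62 receptor that delivers ubiquitinated cargo, read 12.04, 11.68, 12.14 and 11.90 in wild type and 9.99, 9.88, 10.12 and 9.93 in hc24. The groups did not overlap and the fall was 3.89-fold (adjusted p = 5.84e-07). hlh-30, the TFEB factor that induces autophagy genes, fell 1.64-fold (adjusted p = 0.000128), and the lysosomal glucosidase gene aagr-4 2.11-fold (adjusted p = 4.4e-06). The conjugation genes atg-16.1 and atg-10 rose 2.01-fold and 3.06-fold (adjusted p = 4.14e-05 and adjusted p = 0.000983), with snx-1, a sorting nexin, at 1.32-fold (adjusted p = 0.00176). sqst-1 was also lower than in hc1 (log2 difference -0.79, adjusted p = 0.000142), and so was atg-16.1 (-0.88, adjusted p = 1.56e-05).

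Innexins, the gap junction proteins of invertebrates, were tested for 16 of 25 genes, with 5 higher and 6 lower (5 and 7 after cyclic loess, 9 and 5 after median centring). These shares, 31.25% and 37.5%, stand beside 36% and 21.5% of all genes. Those that rose included the members that join the germ line to the gonadal sheath: inx-21 rose 1.48-fold, inx-14 1.41-fold and inx-8 1.28-fold (adjusted p = 0.000801, adjusted p = 0.00228 and adjusted p = 0.00129). inx-11 and inx-7 rose 2.02-fold and 1.5-fold (adjusted p = 0.000221 and adjusted p = 0.000343). inx-12 and inx-13, of the excretory canal and epidermis, fell 1.76-fold and 2.02-fold, and inx-5 fell 2.32-fold (adjusted p = 0.000145, adjusted p = 8.72e-06 and adjusted p = 3.35e-05). inx-1, inx-15 and inx-17 fell at least 2.62-fold, 1.64-fold and 1.31-fold (adjusted p = 0.0017, adjusted p = 0.00017 and adjusted p = 0.0238). The call of inx-17 was lost without wild type array 6 or hc24 array 3 or 5 (left out singly, adjusted p = 0.0503 to 0.0629) and after median centring (adjusted p = 0.29). The germ line and sheath members inx-22 and inx-9 differed by 0.33 and 0.08 on the log2 scale (adjusted p = 0.0548 and adjusted p = 0.473), and median centring called both higher (adjusted p = 0.00332 and adjusted p = 0.00704).

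Genes of neurons were mostly too dim for these whole-worm arrays. Only 10 of 62 cilium genes, 10 of 56 genes of acetylcholine and GABA signalling and 12 of 72 potassium channels passed the filter. In the cilium list 5 (50%) fell and 1 (10%) rose, beside 21.5% and 36% of all genes. The gene that rose was hyls-1 of the centriole (1.17-fold, adjusted p = 0.0211). All 3 subunits of heterotrimeric kinesin-II, a motor of ciliary transport, fell: klp-11 by 7.94-fold, kap-1 by 2.45-fold and klp-20 by 1.77-fold (adjusted p = 2.2e-05, adjusted p = 0.000713 and adjusted p = 0.000102). klp-11 read 8.26, 7.09, 8.20 and 7.99 in wild type and 5.09, 5.23, 4.36 and 4.91 in hc24, so the groups did not overlap although each was spread widely. dyf-7, which anchors sensory dendrites, fell 6.07-fold (adjusted p = 2.89e-06) and ift-43 1.38-fold (adjusted p = 0.0325). The call of ift-43 was lost without wild type array 3 or 4 or hc24 array 2, 3 or 5 (left out singly, adjusted p = 0.0501 to 0.0854) and with median centring (adjusted p = 0.248), and that of hyls-1 was lost without wild type array 3 or 5 or hc24 array 1 or 3 (left out singly, adjusted p = 0.0505 to 0.0528) and with cyclic loess (adjusted p = 0.419). At synapses the GABA transporter gene snf-11 was at least 1.58-fold lower, the acetylcholine receptor chaperone gene ric-3 fell 1.79-fold, the receptor clustering gene lev-10 1.76-fold and the muscarinic receptor gene gar-3 1.45-fold (adjusted p = 5.84e-08, adjusted p = 0.000134, adjusted p = 0.00032 and adjusted p = 0.00863), and nra-2 rose 1.19-fold (adjusted p = 0.00531). Cyclic loess ended the call of nra-2 (adjusted p = 0.185) and median centring that of gar-3 (adjusted p = 0.0681). Of the 12 potassium channels 0 rose and 3 (25%) fell, a share of falls near the 21.5% of all genes. Between levels of 4 and 6, where the median level of these channels lay, 32% of probe sets were lower. The channels that fell included mps-2, by 4.13-fold (adjusted p = 4.25e-07), and twk-31, by 1.71-fold (adjusted p = 0.00376).

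The most abundant messages changed by small amounts. Of the 8 brightest higher genes 5 encode cuticle collagens, and col-124 read 14.92, 14.53, 14.76 and 14.62 in wild type and 16.06, 16.13, 16.20 and 16.13 in hc24, 2.69-fold higher with no overlap (adjusted p = 1.89e-06). col-93 rose 1.68-fold (adjusted p = 0.000215), cpg-2, an eggshell proteoglycan, 1.14-fold (adjusted p = 0.0289) and tba-2, an alpha tubulin, 1.16-fold (adjusted p = 0.0112). Whether the probe sets of col-124 and col-93 share signal with other collagen genes was not tested. The calls of cpg-2 and tba-2 were lost with cyclic loess (adjusted p = 0.31 and adjusted p = 0.199), and that of cpg-2 without wild type array 3 or 5 or hc24 array 1, 2 or 5 (left out singly, adjusted p = 0.0519 to 0.0756). Of the 8 brightest lower genes 3 encode yolk proteins: vit-6 fell 1.19-fold, vit-2 1.26-fold and vit-5 1.15-fold (adjusted p = 0.00786, adjusted p = 0.0163 and adjusted p = 0.0347). Median centring ended these calls (adjusted p = 0.984 for vit-6, adjusted p = 0.421 for vit-2) and turned vit-5 to a log2 difference of 0.05 (adjusted p = 0.544), and the call of vit-5 was lost without wild type array 4, 5 or 6 or hc24 array 1, 3 or 5 (left out singly, adjusted p = 0.0502 to 0.0788). The lysozyme gene ilys-5 fell 1.3-fold (adjusted p = 0.00108), the uterine gene ule-4 1.65-fold (adjusted p = 2.38e-05) and the lipid-binding gene far-2 1.23-fold (adjusted p = 0.00512), and median centring ended the calls of ilys-5 and far-2 (adjusted p = 0.0994 and adjusted p = 0.573).

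Beyond the extremes, some moderate changes were measured with very little spread. sto-1, a stomatin, read 10.67, 10.54, 10.57 and 10.54 in wild type and 8.96, 8.98, 8.97 and 9.06 in hc24, 3-fold lower (adjusted p = 7.25e-08). apl-1, the worm homolog of the amyloid precursor protein, read 12.44, 12.24, 12.35 and 12.39 and 10.81, 10.88, 10.97 and 10.61, 2.91-fold lower (adjusted p = 1e-06), and dep-1, a receptor tyrosine phosphatase that opposes EGF receptor signalling, fell 2.6-fold (adjusted p = 9.5e-07). The prolyl isomerase gene fkb-3 fell 2.55-fold (adjusted p = 3.78e-07). None of these groups overlapped. In the other direction ints-8, a subunit of the Integrator complex, read 6.07, 6.09, 5.86 and 6.16 in wild type and 7.52, 7.67, 7.63 and 7.47 in hc24, 2.88-fold higher (adjusted p = 6.58e-07). sqrd-1, the sulfide oxidising enzyme of mitochondria, rose 2.69-fold (adjusted p = 5.49e-07) and was also higher than in hc1 by 0.75 on the log2 scale (adjusted p = 0.00163).

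Switch-like genes, with every array of a group under 4 and every array of the other at 6 or more, were chosen for that difference and are described without a test. There were 22 with hc24 as the high group and 35 with wild type as the high group. Of the 22, 11 lie on chromosome II and 0 on X, and of the 35, 8 lie on X. Chromosome II holds 1535 and X 1208 of the 8687 tested genes. The T-box gene tbx-37 read 3.13, 3.37, 3.43 and 3.37 in wild type and 8.23, 8.24, 8.60 and 8.31 in hc24. glf-1, which makes the galactofuranose of surface glycans, read 9.34, 9.09, 9.39 and 9.57 in wild type and 3.19, 3.16, 3.23 and 3.68 in hc24, and bus-5, of the surface coat that pathogens bind, 8.37, 7.39, 8.45 and 8.69 and 2.42, 2.39, 2.25 and 2.46. tbx-37 was at least 20.3-fold higher, and glf-1 and bus-5 at least 40.7-fold and at least 18.7-fold lower. In hc1 the means were 9.0 ± 0.23 for tbx-37, 5.69 ± 0.44 for glf-1 and 3.99 ± 1.04 for bus-5 (SD, n = 4 each), so glf-1 lay between wild type and hc24.

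The genes with the narrowest interval around 0, at levels of 8 or more, give the precision of the arrays. The ribosomal protein gene rps-10 read 15.51, 15.49, 15.53 and 15.56 in wild type and 15.55, 15.50, 15.45 and 15.60 in hc24, with a 95% interval of the difference of -0.14 to 0.14. coq-4, of ubiquinone synthesis, read 8.30, 8.33, 8.31 and 8.29 and 8.32, 8.30, 8.33 and 8.32, with an interval of -0.12 to 0.13. The groups overlap in both cases. The endosomal GTPase gene rab-5 had an interval of -0.13 to 0.13, yet cyclic loess called it lower (log2 difference -0.16, adjusted p = 0.0472), so these calls of little difference hold only within a scaling.

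Probe sets of the same gene did not always share a call. Of 2116 genes with several tested probe sets 440 had all higher, 354 all lower and 664 none called, and in 652 some were called in 1 direction and others not called. In 6 genes probe sets were called in opposite directions. For ztf-11, a zinc finger factor gene, 1 probe set fell by 0.82 on the log2 scale (adjusted p = 0.00176) and another rose by 0.44 (adjusted p = 0.0141). For melo-1 the values were -0.71 (adjusted p = 2.81e-05) and 0.49 (adjusted p = 0.00032). The others were T24B8.7, mtm-3, gei-17 and mek-5, with gaps of 0.65 to 0.95 between their probe sets. Calls of the represented probe sets of T24B8.7 and mek-5 were lost without wild type array 4, 5 or 6 or hc24 array 1, 2, 3 or 5 (left out singly, adjusted p = 0.0609 to 0.103) and without wild type array 3 or 5 or hc24 array 1 or 2 (left out singly, adjusted p = 0.0561 to 0.0724). No isoform was assigned to any probe set here.

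Genes on chromosome X were set beside those elsewhere. Of 1208 tested X genes 27.8% were higher and 36.3% lower, beside 37.4% and 19.1% of 7452 autosomal genes. On X the excess of lower calls turned with median centring, to 550 higher and 345 lower, and was 274 higher and 496 lower after cyclic loess. The median difference was -0.06 on X and 0.14 on the autosomes, and X lay 0.13 to 0.18 below all genes under each scaling. X genes were dimmer, with a median wild type level of 8.15 beside 9.73, so the shares were also taken within levels. Between levels of 10 and 12, 24.9% of 173 X genes were higher and 38.7% lower, beside 45.6% and 8.27% of 2466 autosomal genes. Between 6 and 8 the shares were close, at 30.7% and 36.3% of 361 X genes beside 29.8% and 34.5% of 1164. These are shares of genes, which are not replicates, and no test was made of the difference. Chromosome V stood between, with 33.1% higher and 26% lower, and chromosome I had 41.4% and 15.4%. Of 8 tested genes of the mitochondrial genome limma called 0, with 0 at an unadjusted p under 0.05.

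**Figure D5:**
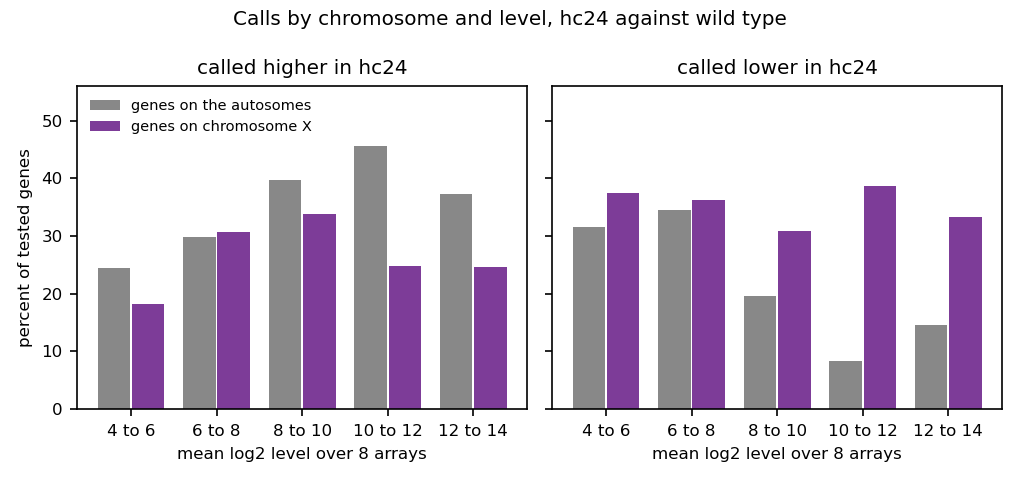
Percent of tested genes called higher (left) or lower (right) in hc24, by mean log2 level over the 8 arrays (x axis), for genes on the autosomes (grey) and on chromosome X (purple). The bars for X and the autosomes are close at levels of 6 to 8 and apart at 10 to 12, where 38.7% of X genes and 8.27% of autosomal genes were lower.

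A mutant strain can carry linked differences around its mutated gene, so the neighbours of fer-1 on chromosome I were listed in gene order. Of the 25 genes on each side 39 were tested, of which 19 were higher and 3 lower, with a median of 0.22 and a range of -2.14 to 0.83. The 3 that fell were ces-1, next to fer-1 in that order, the neighbouring calponin gene cpn-1 (1.27-fold, adjusted p = 0.0179, and adjusted p = 0.428 with median centring) and the neuropeptide gene flp-22 (2.23-fold, adjusted p = 4.81e-05). The share of higher neighbours, 48.7%, stands beside 41.4% for chromosome I. ces-1 was 3.48 ± 0.22 in hc1 (SD, n = 4) and 3.33 ± 0.06 in hc24, so both strains carrying a fer-1 allele were under the floor there.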

How the data were processed

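Total RNA of 12 whole-worm samples was measured on Affymetrix C. elegans arrays, 4 per group, with groups taken from the sample titles. The authors deposited 1 log2 value per probe set and array, made with Affymetrix Expression Console and GCRMA (background correction from probe sequence, normalization between arrays and summary of probes) per the submitters' processing notes; the genome build and tool versions were not given in the sources used here. GCRMA compresses dim values towards a background level, so groups under 4 were held at 4 and their folds are given as "at least". Scanner files and detection calls were not used here. The number of arrays, not depth, limits the precision.

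From these values, probe sets at 4 or more in at least 4 of the 8 arrays entered a limma model (limma 3.58.1, R 4.3.3) of group means with empirical Bayes moderation, and two-sided p-values were adjusted by Benjamini-Hochberg over all 11760. Values are means ± SD over 4 arrays, and SE and 95% intervals come from the fit. hc24 was set against hc1 in a fit of all 12 arrays on the same probe sets. The fit was tested on simulated data. Titles call the samples biological replicates, and nothing more on separate cultures was used. Probe sets were named through the platform annotation, and 20701 of 20766 with 1 gene matched a RefSeq gene table of assembly WBcel235, used for chromosome names and gene order. Families are genes sharing the letters of their symbol. Alternatives were another scaling, filter, variance model, array weights, all 12 arrays, a replicate block and each array left out.

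Members, the 28 gene lists, the markers and the rule for named genes were chosen with earlier results of these data known. The rule took the largest, brightest and most precise changes, switch-like and least changed genes, up to 3 members each way of a list and 2 of a family by adjusted p, genes with discordant probe sets, and markers. Genes outside the rule were chosen after their values were seen: age-1, akt-1, blmp-1, ced-3, ced-4, ceh-34, cep-1, cpn-1, cwn-1, deb-1, dsh-1, egl-19, flp-22, gar-3, grl-4, ift-43, ina-1, inx-1, inx-8, inx-9, inx-14, inx-15, inx-17, inx-22, kap-1, mig-1, mig-14, mom-2, noah-1, noah-2, pat-3, pck-1, rab-1, sma-4, sma-6, soc-2, tbx-2, tln-1, ttr-53, unc-97 and unc-112, and those of the closing paragraphs on other families. A search of promoters for motifs was not made and no sequences are shown, since none were used here.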

Additional observations from a re-analysis of the deposited data

Results flagged for a closer look

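Among the 4 arrays of a genotype, 1 array stood apart from the other 3 for 33 of 460 gene and genotype pairs named in the text, by a gap to its nearest neighbour that passed Dixon's 95% critical value for the share of the group's range. Chance marks about 1 in 20 groups. Values are log2 levels, with the range of the other 3 arrays in brackets, and no cause was tested. In wild type array 3 the gene was cyp-13A5 at 12.73 (12.25 to 12.31). In wild type array 4 the genes were deb-1 at 9.46 (9.82 to 9.85), dyf-7 at 6.52 (7.27 to 7.38), ilys-5 at 15.89 (16.05 to 16.07) and inx-5 at 7.58 (8.05 to 8.08). That array also stood apart for sdz-31 at 3.32 (3.13 to 3.14) and sdz-6 at 5.16 (5.55 to 5.60). In wild type array 5 the genes were dog-1 at 7.30 (7.53 to 7.53) and ksr-2 at 7.87 (8.27 to 8.34). In wild type array 6 the genes were far-2 at 15.34 (15.32 to 15.33), npp-16 at 10.86 (10.60 to 10.63) and sdz-9 at 2.72 (2.97 to 2.98). In hc24 array 1 the genes were cutl-2 at 2.42 (2.27 to 2.29), ilys-5 at 15.69 (15.62 to 15.62) and phy-2 at 6.83 (7.07 to 7.10). In hc24 array 2 the genes were ceh-34 at 5.59 (5.90 to 5.91), eef-1A.2 at 13.17 (12.97 to 12.99), egl-15 at 3.93 (3.97 to 3.98) and lin-1 at 8.61 (8.85 to 8.89). That array also stood apart for unc-120 at 6.09 (5.75 to 5.76) and unc-15 at 13.91 (13.78 to 13.80). In hc24 array 3 the genes were cwn-1 at 4.97 (5.88 to 6.06), fbxb-17 at 8.79 (9.02 to 9.06), fbxc-28 at 8.63 (8.89 to 8.93) and melo-1 at 12.79 (12.63 to 12.63). That array also stood apart for peb-1 at 4.14 (4.09 to 4.10) and soc-2 at 8.06 (8.44 to 8.51). In hc24 array 5 the genes were glf-1 at 3.68 (3.16 to 3.23), inx-11 at 8.13 (8.31 to 8.32), inx-13 at 8.69 (8.50 to 8.52) and pha-4 at 6.78 (6.28 to 6.33). That array also stood apart for sgk-1 at 7.14 (7.58 to 7.66) and tsp-12 at 10.27 (10.40 to 10.41).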

How the results depend on the processing

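Scaling and filtering decide how many small rises are called. The 4222 probe sets called higher became 7550 with median centring, 2521 with cyclic loess and 6774 with no filter on low values, and the 612 higher by at least 2-fold became 928 with median centring. Of the called probe sets 63.1% were higher as deposited, 80.2% with median centring, 44.7% with cyclic loess, 61.4% with quantile normalization and 72.3% with no filter. Leaving out single arrays gave 3725 to 4127 higher, 2282 to 2584 lower, 603 to 636 higher and 1059 to 1207 lower by at least 2-fold, and 2861 to 3776 differing from hc1. Replicate numbers 3 and 5 occur in both genotypes. Deviations of same-numbered arrays had correlations of -0.03 and 0.08, within the -0.15 to 0.14 of unlike-numbered arrays. These pairs are too few to tell whether the arrays share more than a number. A replicate block over the 8 arrays called 2539 higher and 4743 in all. Its difference between the genotypes rests on the arrays numbered 3 and 5 alone, since the other numbers occur in a single genotype. A call lost in that fit can come from the fewer arrays or from the block, which cannot be told apart. That fit ended the limma calls of several named genes, among them npp-8, pas-1, inx-8 and ife-4 (adjusted p = 0.0837, 0.0614, 0.111 and 0.0642). Of 4588 values of the 230 named genes under the alternatives, 4379 kept a call in the same direction or stayed uncalled. A further 179 lost the call, 26 gained one and 4 changed sign. Signs were not compared for genes that neither fit called. The sign changes were coh-1 (0.0246), rab-1 (0.0185) and vit-5 (0.0527) with median centring and rab-5 (-0.16) with cyclic loess, as log2 differences, and the cause was not tested. Dim genes limit the rest: values near background are compressed by GCRMA, so falls to the floor are lower bounds. The search of promoters for motifs was not run.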

Other observations

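Several families outside the lists above moved in both directions, beside 36% of all genes higher and 21.5% lower. The members named here were picked by their small adjusted p-values (limma, Benjamini-Hochberg) after the values were seen, so they are a description. Of 18 tested skr genes, which encode Skp1-related adaptors that join F-box proteins to ubiquitin ligases, 10 rose and 6 fell, with a median log2 difference of 0.48. skr-8 read 10.39, 10.58, 10.47 and 10.43 in wild type and 12.74, 12.78, 12.75 and 12.74 in hc24, 4.86-fold higher without overlap (adjusted p = 9.1e-09), and skr-13 and skr-9 rose 3.93-fold and 5.38-fold (adjusted p = 2.15e-08 and adjusted p = 3.6e-08). skr genes include near-identical copies, so values of single members are uncertain. Between the alleles 11 of the 18 were lower in hc24 than in hc1 while 0 were higher. F-box genes of the fbxa and fbxc groups also divided, with 19 of 46 and 11 of 18 higher and 8 and 4 lower, and fbxc-28 rose 7.73-fold (adjusted p = 6.42e-08).

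Of 17 tested hsp genes 8 were lower, 7 of them at least 2-fold, and 2 higher (9 and 0 after cyclic loess, 8 and 7 after median centring). Small heat shock proteins led the falls: hsp-12.1 read 9.77, 9.29, 9.67 and 9.28 in wild type and 5.77, 5.66, 5.79 and 5.86 in hc24, 13.3-fold lower (adjusted p = 2.45e-08), and hsp-43 and hsp-16.41 fell 4.11-fold and 13.9-fold (adjusted p = 2.32e-07 and adjusted p = 4.87e-05). The arrays of hsp-12.1 did not overlap. Of 23 neuropeptide-like nlp genes 11 were lower and 3 higher. nlp-39 fell to background, from 8.97 ± 0.49 to 2.60 ± 0.02 (SD, n = 4 each), at least 31.3-fold lower (adjusted p = 2.58e-08), and the epidermal antimicrobial peptide genes nlp-28 and nlp-29 fell 3.06-fold and 2.97-fold (adjusted p = 3.08e-06 and adjusted p = 1.46e-05). C-type lectins, secreted or membrane proteins often linked to immunity, divided into 16 higher and 22 lower of 53 (10 and 24 after cyclic loess, 20 and 18 after median centring), from clec-160, 8.49-fold higher (adjusted p = 4.46e-07), to clec-190, 17-fold lower (adjusted p = 1.98e-07). Of the detoxification families, 10 of 35 UDP-glucuronosyltransferase genes rose and 12 fell, and 7 of 28 cytochrome P450 genes rose and 9 fell. Both balances turned with median centring: cyclic loess gave 10 higher and 12 lower ugt and 2 and 12 cyp genes, and median centring 16 and 10 ugt and 12 and 7 cyp genes. ugt-57 was at least 10.7-fold lower (adjusted p = 3.89e-07) and cyp-13A5 9.76-fold lower (adjusted p = 7.57e-07).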
